A study of Mus musculus with 18 samples.

Results

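The mitochondrial ribosomal protein genes of the mouse heart were taken as the protein-coding genes whose symbol is Mrpl or Mrps followed by a digit in the GENCODE M21 annotation. This rule found 78 genes, 49 Mrpl and 29 Mrps, among the 34150 Ensembl genes of the files. Every one of the 78 reached the mean of 0.5 FPKM over all libraries needed for a test, as did 13710 genes in all. FPKM is the number of fragments per kilobase of gene length, scaled to the size of the library, so that levels can be compared between genes of different length. A further 5 Mrp loci are annotated as processed pseudogenes (Mrps36-ps1, Mrps36-ps2, Mrps36-ps3, Mrpl23-ps1 and Mrpl48-ps) and are not members. Reads of the matching parent genes Mrps36, Mrpl23 and Mrpl48 could be divided with them, so their values are uncertain.

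The libraries came from mouse heart tissue, 6 from control mice, 6 from mice labelled MI (myocardial infarction) and 6 labelled HXP treatment. By the title of the series, the treatment was given in an acute infarction model. What HXP stands for, its dose, the strain, sex and age of the mice, the part of the heart and the timing of the experiment are absent from the labels, which also do not say that every HXP mouse was infarcted. Nothing in the labels says that each library is a separate mouse, so p-values refer to the variation among libraries, which may be in part technical.

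Mitochondria keep a small genome of their own, whose messenger RNAs encode subunits of the respiratory chain and ATP synthase. They are translated inside the organelle by a ribosome with 2 RNAs made from that genome and proteins that are all encoded in the nucleus, made in the cytosol and imported. The large subunit forms the peptide bond and passes the new chain to the inner membrane, and the small subunit holds and decodes the message. Many of these proteins have a bacterial counterpart, and others are found only in mitochondria. The heart depends on oxidative phosphorylation and is rich in mitochondria. The symbol is not a safe guide to the subunit: Mrps30 and Mrps18a sit in the large subunit, and Mrps36 belongs to the 2-oxoglutarate dehydrogenase complex and is no ribosomal subunit. By location, 51 members were large-subunit and 26 small-subunit genes. By origin, 48 had a bacterial counterpart and 29 were specific to mitochondria.

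Depth, recovered from the spacing of the FPKM values, was 75.6 to 81.0 M reads per library, so counting error was small at the levels of most members. It was larger for the lowest values of short members in HXP 5 and HXP 6. The share of reads on mitochondrial genes and nuclear copies of them was 36.4% to 42.6% for control libraries, 20.4% to 33.2% for MI and 20.5% to 45.5% for HXP. All 13 cardiomyocyte markers were above 0.5 FPKM, with a summed level of 18241.8 to 20448.0 FPKM over controls, 14390.2 to 19571.7 over MI and 13116.6 to 22818.5 over HXP libraries. MI 5 stood apart by 8 lung epithelial markers (sum 1186.1 FPKM, next highest MI library 2.07). MI 4 did so by 10 skeletal muscle markers (1488.1, next 998.8). That second list includes Acta1 and Ckm, with control means of 178.5 and 626.6 FPKM, and Ckm is also among the cardiomyocyte markers. Its sum was 709.1 to 1043.3 FPKM in controls, so it does not by itself show skeletal muscle. HXP 5 and HXP 6 stood apart by base composition: across all genes tested, Spearman's rho between GC content and the difference from the control mean was -0.35 and -0.54 there, and lay between -0.15 and 0.25 in the other 16 libraries. The file headers give library numbers that form 3 runs, of 3 libraries (control 2, control 5, MI 5), 5 libraries (control 1, HXP 1, 3, 4 and 6) and 10 libraries (the rest).

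In control hearts the members spanned a 35.9-fold range of level. Mrpl12, the factor-binding stalk protein that also associates with the mitochondrial RNA polymerase, was highest at 71.1 ± 4.04 FPKM (SD, n = 6). Mrps21 followed at 66.4 ± 13.4 FPKM and Mrpl18, a protein of the central protuberance, at 60.7 ± 3.40 FPKM. The ranges of Mrpl12 and Mrps21 overlapped, as did those of Mrps21 and Mrpl18, so their order is not resolved. At the other end stood Mrps10, of the decoding head, at 1.98 ± 0.107 FPKM, then the large-subunit gene Mrps30 at 2.97 ± 0.213 and Mrps22 at 3.48 ± 0.405. The median of the 78 means was 12.6 FPKM. It was 18.1 over large-subunit and 9.45 over small-subunit genes, and 51.7 over the 82 cytosolic ribosomal protein genes. The mean was 10 FPKM or more in 49 members and under 5 FPKM in 12. The members were steadiest in control: the median coefficient of variation over 6 libraries was 7.42% in control, 13.9% in MI and 18.2% in HXP.

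**Figure D1:**
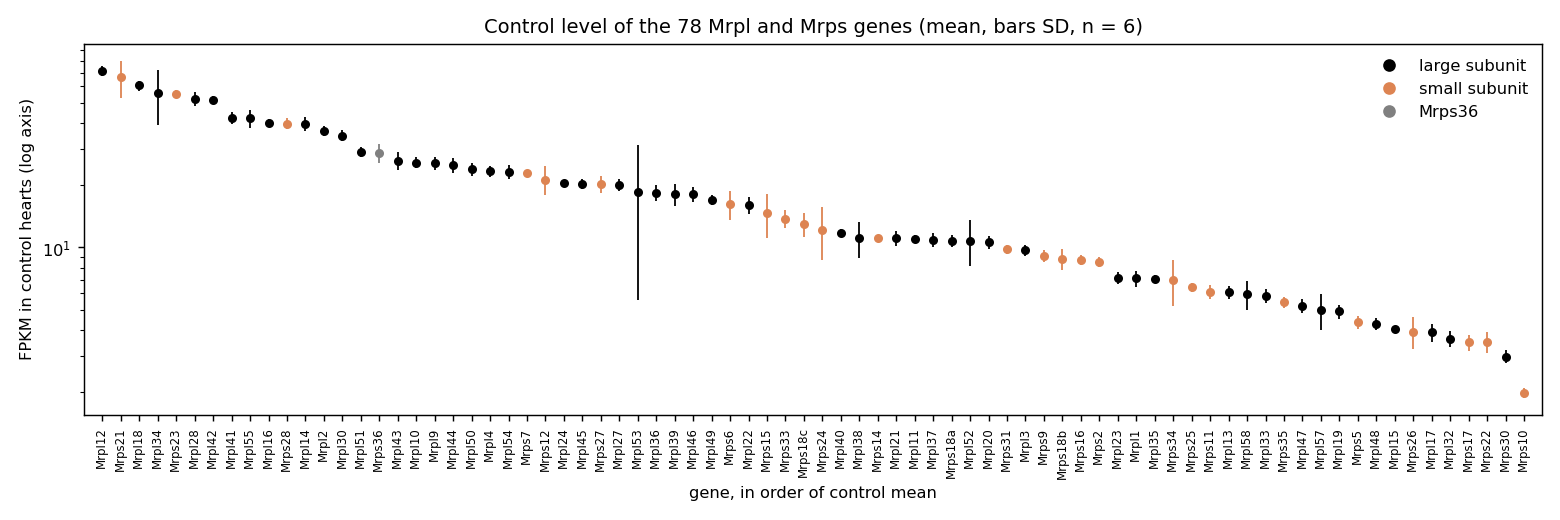
Control level of each of the 78 Mrpl and Mrps genes, in order of the mean (points, mean FPKM on a log axis; bars, SD over 6 libraries; black, large subunit; orange, small subunit; grey, Mrps36). Levels run from 71.1 FPKM for Mrpl12 to 1.98 for Mrps10, and Mrpl53 has a wide bar because 1 control library lies far above the other 5.

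As a group the members lay lower in MI and HXP than most other genes did. For each library the median over members of the difference from the control mean of log2(FPKM + 1) was taken. It was -0.17, -0.20, 0.08, -0.04, -0.18 and -0.01 in MI 1 to MI 6, while the same median over all genes tested was 0.14 to 0.41 in those libraries. In HXP 1 to HXP 6 it was 0.10, -0.13, -0.36, -0.30, -0.21 and -0.14, with all genes at -0.11 to 0.46. Every MI and HXP library had its members below its own median gene, by 0.15 to 0.59 in MI and by 0.03 to 0.82 in HXP. On the same measure the control libraries lay between -0.06 and 0.08, so that HXP 6, at -0.03, was within the control range. Cardiomyocyte markers were low in many of the same libraries, at -0.72 in MI 5 and -0.74 in HXP 3. The 2 did not always go together. In HXP 4, with members at -0.30, the markers were at 0.0, and in MI 3, with members at 0.08, they were at -0.18. Fibroblast and matrix markers (12 of 12 above 0.5 FPKM in MI) summed to 230.6 to 337.7 FPKM in the controls and to 785.3 to 4269.3 in the MI libraries, and the 12 macrophage markers to 175.4 to 240.6 and to 262.0 to 1154.5. In the HXP libraries these sums ran from 169.4 to 4080.1 and from 110.1 to 1060.7 FPKM, so that they overlapped both other groups. The part of these cells in the member result was not tested, and in tissue RNA fewer cells of a type and less RNA per cell cannot be told apart.

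**Figure D2:**
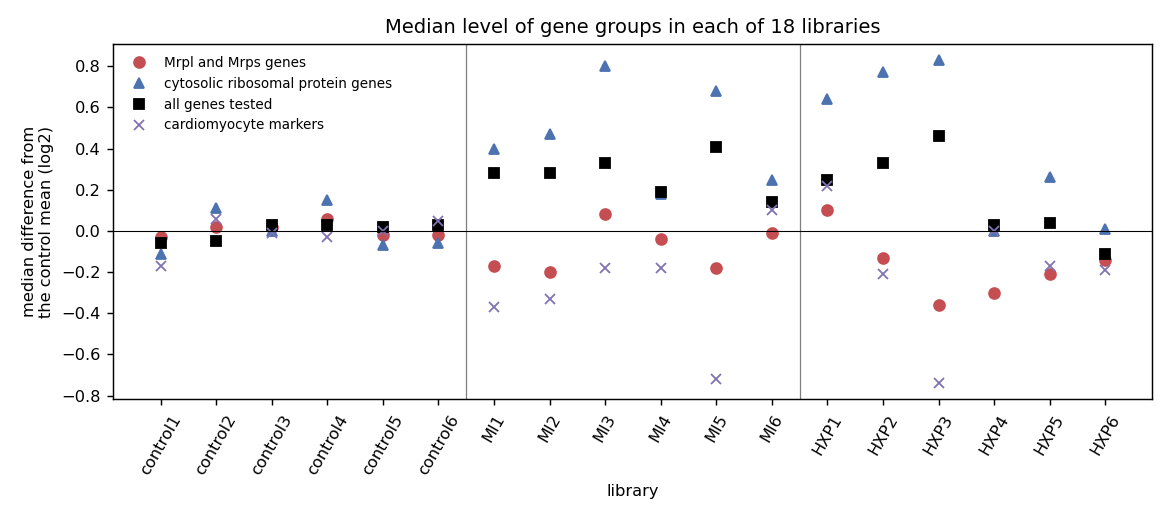
Median difference from the control mean, on the log2(FPKM + 1) scale, of 4 groups of genes in each of the 18 libraries (red circles, Mrpl and Mrps genes; blue triangles, cytosolic ribosomal protein genes; black squares, all genes tested; crosses, cardiomyocyte markers). In MI and HXP the red circles lie below the black squares in every library, and the lowest is HXP 3 at -0.36.

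MI hearts were first compared with control hearts, to see what infarction changes. Of the 78 members, 1 was higher and 7 were lower at an adjusted p below 0.05 (limma on log2(FPKM + 1), Benjamini-Hochberg over all genes tested). Fold changes here and below are fitted differences of log2(FPKM + 1), and a signed value in parentheses is such a fold change. Over all genes, 40.1% were called higher and 3.21% lower. The median fold change of the members was -0.11 on the log2 scale, against 0.27 for all genes, and 56 members had a negative and 22 a positive value. The 51 large-subunit genes gave 1 higher and 5 lower with a median of -0.14, and the 26 small-subunit genes 0 higher and 2 lower with a median of -0.06. The 48 genes with a bacterial counterpart had a median of -0.11 and the 29 mitochondria-specific genes -0.14.

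The gene that rose was Mrpl20, a large-subunit protein with a bacterial counterpart (ENSMUSG00000029066, GRCm38 chr4:155802878-155809975, plus strand). Its level was 11.1, 9.62, 9.78, 11.4, 10.2 and 11.2 FPKM in control 1 to 6 and 14.2, 14.9, 15, 14.4, 12.6 and 13.3 in MI 1 to 6. Every MI library was above every control library. The fold change was 0.38 (SE 0.12, adjusted p 0.0241), but with median-ratio scaling alone, which has no GC term, it was 0.01 (adjusted p 0.908). After a correction of each library on GC content it was 0.07 (adjusted p 0.475), and it turned to -0.0017 when median-ratio scaling came before that correction. Mrpl24, at the rim of the exit tunnel, also had groups that did not overlap (control 20.0 to 21.1 FPKM, MI 21.4 to 27.2), with a fold change of 0.19 that missed the threshold (SE 0.10, adjusted p 0.128).

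Of the 7 genes that fell, 5 belong to the large subunit. Mrpl3, a core protein near the peptidyl transferase centre (ENSMUSG00000032563, GRCm38 chr9:105053239-105079888, plus strand), had 9, 10.2, 9.71, 10.5, 9.7 and 8.93 FPKM in control 1 to 6. In MI 1 to 6 it had 8.43, 7.77, 7.76, 8.48, 6.75 and 8.04 FPKM. The highest MI library lay below the lowest control library, and the fold change was -0.27 (SE 0.09, adjusted p 0.0261). Mrpl30 (ENSMUSG00000026087, GRCm38 chr1:37890477-37898535, plus strand) had 34.1, 38.5, 35.1, 34.9, 33 and 32.9 FPKM in control and 28.3, 28.9, 27.9, 28.6, 24.2 and 32.3 in MI, again with no overlap, for a fold change of -0.29 (SE 0.10, adjusted p 0.0344). Mrpl1, of the mobile stalk at the exit site for transfer RNA, went from 7.08 ± 0.625 to 5.52 ± 0.66 FPKM (SD, n = 6 each; -0.31, adjusted p 0.0325). Mrpl47, at the exit tunnel, went from 5.24 ± 0.398 to 4.28 ± 0.509 FPKM (-0.24, adjusted p 0.0406), and Mrpl50 from 23.9 ± 1.70 to 20.1 ± 1.76 FPKM (-0.24, adjusted p 0.0478).

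The small-subunit genes that fell were both mitochondria-specific. Mrps35 had the lowest called fold change, from 5.42 ± 0.348 to 4.17 ± 0.682 FPKM (-0.32, SE 0.12, adjusted p 0.036). Mrps22 went from 3.48 ± 0.405 to 2.80 ± 0.438 FPKM (-0.24, adjusted p 0.0486). In these 5 genes without full separation, from Mrpl1 to Mrps22, the control and MI ranges overlapped. In all, 2 members had every MI library above every control library and 2 had every one below, where 27.9% and 1.39% of all genes did. Mrpl47 overlaps Ndufb5 and Actl6a in the annotation, and the labels do not say whether the counting used strand, so its reads may include theirs.

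The members with the best-known roles, Mrpl3 apart, were not called. Mrpl12 had 71.1 ± 4.04 FPKM in control and 64.7 ± 9.62 in MI (-0.14, adjusted p 0.309). Mrpl10, which carries the stalk, had 25.7 ± 1.57 and 26.4 ± 2.49 (0.03, adjusted p 0.761). Mrpl45, which anchors the ribosome to the inner membrane, had 20.3 ± 1.12 and 17.9 ± 2.46 (-0.19, adjusted p 0.153), and its partner at the tunnel Mrpl44 24.9 ± 2.09 and 22.8 ± 3.16 (-0.13, adjusted p 0.272). Mrps12, the decoding-centre protein, had 21.3 ± 3.33 and 18.4 ± 7.39 (-0.28, adjusted p 0.467). The members Mrps30, Mrps18a and Mrps36, whose symbols do not give their place, had -0.14, -0.13 and -0.11, none called. Mrps34 (0.09) and Mrps5 (0.05) of the small subunit were not called either, and the signs of Mrpl10, Mrps34 and Mrps5 turned negative after the GC correction (-0.27, -0.27 and -0.21). Mrpl10 was also negative with median-ratio scaling alone, which has no GC term (-0.35, adjusted p 0.0355). So were all 26 small-subunit genes, Mrps34 and Mrps5 among them.

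How many members were called depended on scaling and on single libraries. Median-ratio scaling, which centres the libraries on their typical gene, gave 0 higher and 47 lower with a median of -0.47, beside 16.5% of all genes higher and 16.1% lower. The GC correction, which also centres each library, gave 0 higher and 41 lower with a median of -0.39, beside 16.8% higher and 14.5% lower. The 7 lower genes were among the called genes in both. Without any 1 of the controls, or without MI 1, MI 2, MI 3 or MI 5, the count of 8 fell to between 0 and 5. Without control 2 no member was called, without control 4 or without MI 5 only Mrpl20 was, and within the run of 10 libraries (3 control and 5 MI) none was. With MI 1 and MI 2, the closest libraries, averaged into 1, 2 members were called, Mrpl3 and Mrpl20. For these changes of libraries the share of all genes called is not given, so the counts cannot be read as particular to the members.

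**Figure D3:**
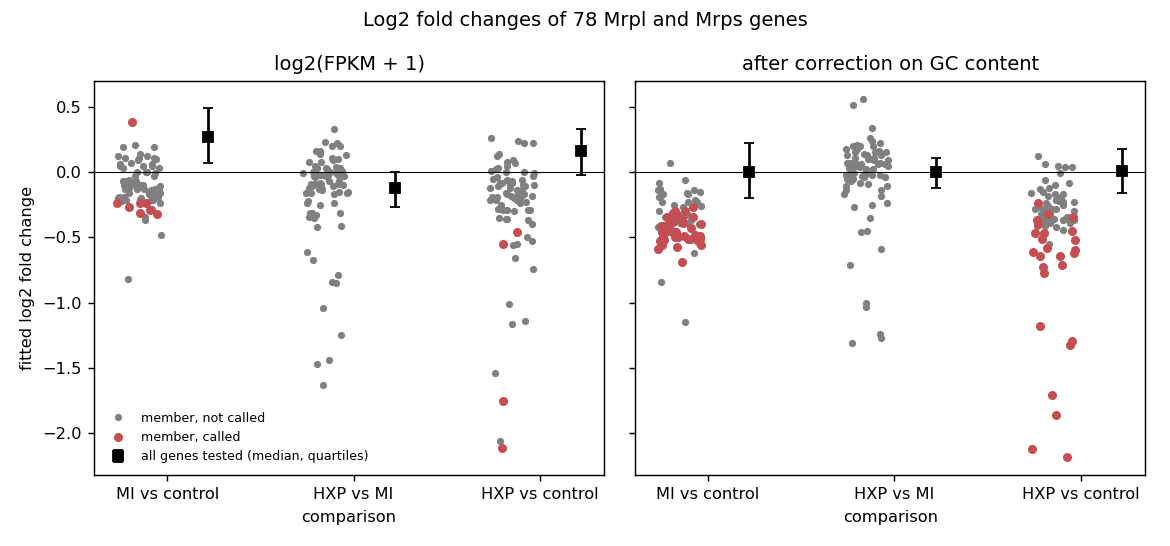
Fitted log2 fold changes of the 78 members in the 3 comparisons (circles; red where the adjusted p is below 0.05), with the median and quartiles of all genes tested (black squares and bars), from log2(FPKM + 1) on the left and after the GC correction on the right. In MI against control the member median is -0.11 on the left and -0.39 on the right, against 0.27 and about 0 for all genes.

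HXP hearts were next compared with control hearts, which carry neither the infarct model nor the treatment; this comparison shares its control libraries with the one above. Here 0 members were higher and 4 lower (limma, adjusted p below 0.05), where 0.0948% of all genes were called higher and 0.219% lower. The median of the members was -0.18 and that of all genes 0.16, with 64 members negative and 14 positive. The 4 genes were Mrps12, Mrpl34, Mrpl4 and Mrpl58. All 6 HXP libraries lay below all 6 controls for Mrps12, Mrpl58, Mrpl53 and Mrpl57, which is 4 members below and 0 above, where 0.569% of all genes were below and 1.13% above.

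Mrps12, the counterpart of the bacterial decoding protein S12 (ENSMUSG00000045948, GRCm38 chr7:28739641-28741820, minus strand), had 22, 15.1, 20.0, 23.7, 22.9 and 23.9 FPKM in control 1 to 6. It had 12.3, 9.01, 25.5, 25.4, 23.9 and 14.2 FPKM in MI 1 to 6 and 10.5, 8.06, 8.55, 5.73, 3.14 and 1.82 in HXP 1 to 6. The HXP libraries were all below the controls, and HXP 5 and HXP 6 were lowest. Its fold change was -1.75 (SE 0.32, adjusted p 0.0374). Mrpl34, one of the smallest proteins of the large subunit (ENSMUSG00000034880, GRCm38 chr8:71464959-71465747, plus strand), had 54.6, 27.6, 73.3, 54.4, 72.3 and 51.8 FPKM in control. It had 22.3, 18.6, 74.5, 60.7, 57.6 and 26.4 FPKM in MI and 31.5, 18.3, 13.6, 11.5, 5.54 and 4.25 in HXP. Only HXP 1 reached into the control range, and the fold change was -2.11 (SE 0.43, adjusted p 0.0453).

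The other called genes moved less and more evenly. Mrpl4, a large-subunit protein that lines the exit tunnel, had 25.3, 21.4, 23.6, 24.7, 22.6 and 22.5 FPKM in control and 21.4, 16.8, 13.6, 14.1, 14.7 and 13.8 in HXP, so that HXP 1 equalled the lowest control and the other 5 lay below them (-0.55, SE 0.11, adjusted p 0.0453). Mrpl58, a peptidyl-tRNA hydrolase that rescues stalled ribosomes and is also built into the large subunit, had 7.69, 5.07, 5.83, 5.45, 6.34 and 5.33 FPKM in control. It had 4.78, 3.77, 4.56, 3.64, 3.66 and 3.74 FPKM in HXP, all below control (-0.46, SE 0.09, adjusted p 0.0453). Mrpl58 overlaps the antisense gene Ict1os, whose reads cannot be told apart without strand. Mrpl12 went from 71.1 ± 4.04 to 50.7 ± 10.3 FPKM and missed the threshold (-0.50, adjusted p 0.0625), with HXP 1 at 70.4 and the other 5 HXP libraries at 42.9 to 52.1. Mrpl3, lower in MI, had 9.27 ± 1.41 FPKM in HXP (-0.07, adjusted p 0.598), and Mrpl20 12.1 ± 3.13 (0.14, adjusted p 0.396).

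Some members reached lower in HXP than the rest, and a cut at -1 set the block described here. Chosen after their values were seen, the 7 members with a fold change of -1 or lower were Mrpl34, Mrpl53, Mrps12, Mrpl52, Mrps28, Mrpl57 and Mrpl36, and 0.569% of all genes were as low. The innermost of the 7 was Mrpl36 at -1.01 and the next member Mrpl14 at -0.74 (SE 0.28), so the cut marks no clear gap. Mrpl14, with 949 bases and 57.5% GC, was also lowest in HXP 5 and HXP 6 (12.5 and 9.66 FPKM) and highest in HXP 1 (51.3). The 7 are no single part of the ribosome. Mrpl53 belongs with the stalk base, Mrpl52 with the central protuberance and Mrps12 with the decoding centre. Mrpl36 is a very small protein of the large-subunit core. Mrps12 and Mrpl34 were called; for the other 5 the adjusted p was 0.0784 (Mrpl53), 0.087 (Mrpl52), 0.0528 (Mrps28), 0.0812 (Mrpl57) and 0.0881 (Mrpl36).

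The block was lowest in the same libraries. Mrpl53 (ENSMUSG00000030037) had 10.7, 5.12, 6.06, 3.56, 0.62 and 0.33 FPKM in HXP 1 to 6, against 11.9, 44.7, 14, 11.7, 13.2 and 15.7 in control. Mrpl52 (ENSMUSG00000010406) had 9.06, 4.73, 3.86, 2.48, 1.22 and 0.716 FPKM in HXP against 10.5, 5.68, 13.1, 11.7, 12.9 and 10.8 in control, and Mrpl57 (ENSMUSG00000021967) 3.09, 2.67, 2.39, 2.74, 0.475 and 0.313 against 4.42, 3.47, 5.31, 5.06, 6.44 and 5.24. Mrps28 (ENSMUSG00000040269) had 40.3, 20.7, 16.8, 17.3, 10.2 and 10.1 FPKM in HXP against 40.9, 38, 41.4, 36.1, 39.6 and 42.2 in control. HXP 5 and HXP 6 were the lowest libraries for every gene of the block, and HXP 1 the highest. In MI 1, MI 2 and MI 6 the block was also low, with a median difference from the control mean of -0.70, -1.02 and -0.53. MI 3, MI 4 and MI 5 were at 0.31, 0.06 and 0.11. Control 2 was low as well, at -0.40, while the other controls lay between 0.01 and 0.12. Over HXP 1 to 6 the median of the block was -0.53, -1.0, -1.21, -1.71, -2.37 and -2.74, whereas that of the other 71 members was 0.12, -0.10, -0.34, -0.29, -0.17 and -0.12. Mrpl53 shares its strand and place with Gm42688, and Mrpl36 overlaps the complex I gene Ndufs6, so those 2 values are uncertain.

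**Figure D4:**
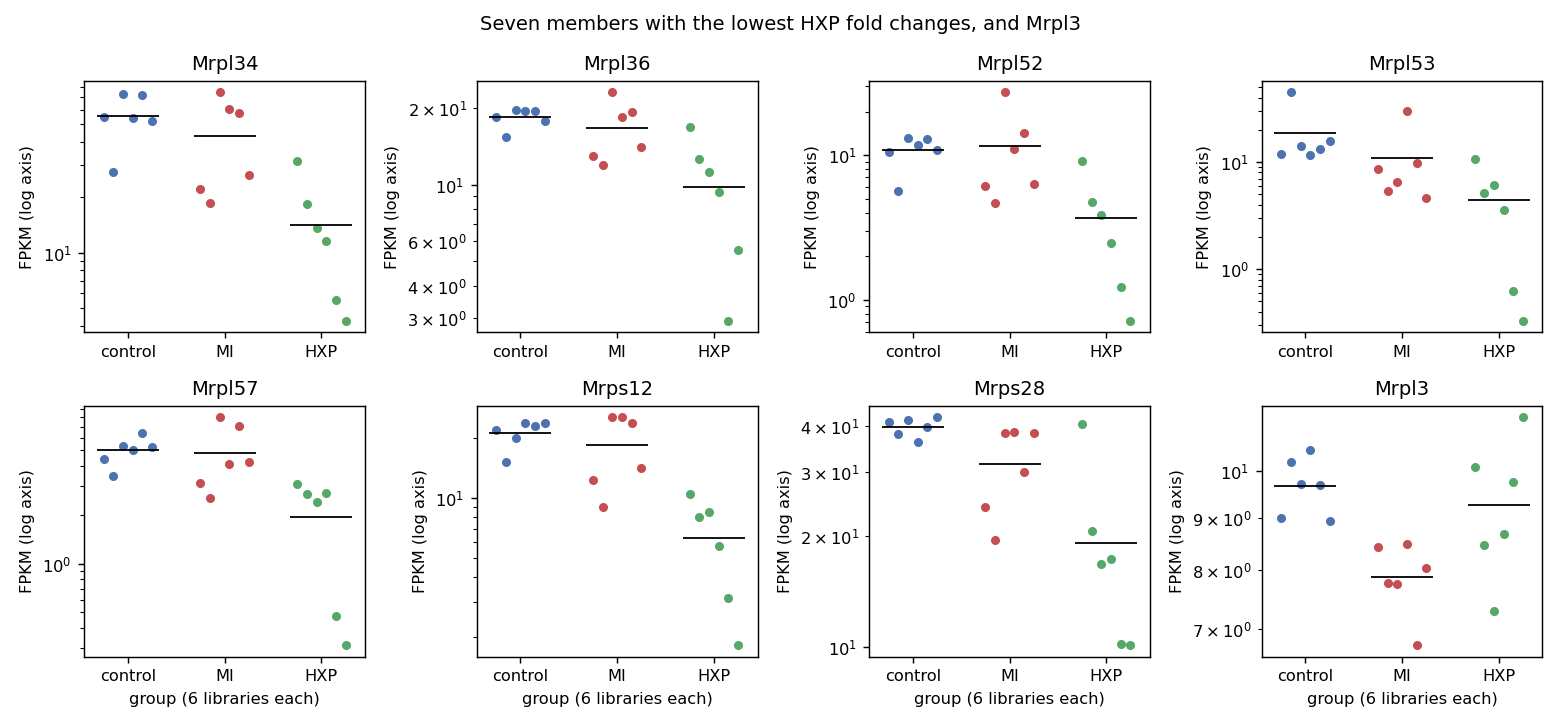
FPKM (log axis) of the 7 members with the lowest HXP fold changes, and of Mrpl3, in the 6 libraries of each group (points, left to right by replicate number, which carries no order; lines, group mean). In the 7 genes HXP 5 and HXP 6 are the lowest libraries, for example 5.54 and 4.25 FPKM for Mrpl34, whereas Mrpl3 is lowest in MI.

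Short, GC-rich transcripts made up most of the block. Its median exon length was 1040 bases against 2596 for the other members, and its median GC content 54.4% against 49.4%. Mrpl57, with 2956 bases and 43.0% GC, was the exception on both counts, and the other 6 were shorter than 1200 bases. Of the 15 members under 1200 bases, 6 had a fold change of -1 or lower in HXP against control (40.0%), and of the 63 longer ones 1 (1.59%). Among all protein-coding genes tested the shares were 6.62% of 468 under 1200 bases and 0.313% of 11507 longer ones. The median fold change was -0.66 for the 15 short members and 0.06 for the 468 short genes. Not every short member was low in HXP. Mrps21, with 739 bases and 53.9% GC, had 106.3, 73.7, 55.4, 68.4, 84.3 and 89.6 FPKM in HXP against 66.2, 76.7, 68.8, 75.6, 40.3 and 70.9 in control (0.26, adjusted p 0.305).

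All 7 members of the block stayed at -1 or lower after the GC correction. The fold change of Mrpl34 was then -2.12 (adjusted p 0.00478) and that of Mrps12 -1.86 (adjusted p 0.0024). The other 5 ranged from -2.18 (Mrpl53, adjusted p 0.0144) to -1.18 (Mrpl36, adjusted p 0.0105). The correction took rho between GC content and fold change from -0.14 to 0.0 over all genes, but only from -0.40 to -0.30 over the members. Over the members, rho with exon length went from 0.34 to 0.31. The part of GC content and length in the block was not tested. Without HXP 5 and HXP 6 the fold changes were smaller, -1.56 for Mrpl34 (adjusted p 0.0112) and -1.28 for Mrps12 (adjusted p 0.00763). Mrpl53 and Mrpl52 were then at -1.32 and -1.04, while Mrps28, Mrpl57 and Mrpl36, at -0.81, -0.67 and -0.54, no longer reached the -1 that set the block. Within the run of 10 libraries, with 3 control and 2 HXP libraries, Mrpl34 had -2.42 (adjusted p 0.171) and Mrps12 -1.94 (adjusted p 0.163), and no member was called. With the run as a term in the fit the values were -2.17 and -1.79 (adjusted p 0.154 for both).

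The start regions of the block and of called genes were read as well. RefSeq start regions on GRCm38.p6 were matched for 69 of the 78 members. Those of 6 genes are shown from 250 bases before to 30 bases after the annotated start, 5′ to 3′ on the strand of the gene, for Mrpl34, Mrps12 and Mrpl52 of the block and for Mrpl3, Mrpl30 and Mrpl20 of the MI comparison. Capitals mark matches, on either strand, to the letters searched for NRF1 (by its palindromic core site), GABP (ACTTCCGG), YY1 (AAGATGGC) or the E-box (CACGTG).
Mrpl34 (chr8:71464676-71464955, plus strand): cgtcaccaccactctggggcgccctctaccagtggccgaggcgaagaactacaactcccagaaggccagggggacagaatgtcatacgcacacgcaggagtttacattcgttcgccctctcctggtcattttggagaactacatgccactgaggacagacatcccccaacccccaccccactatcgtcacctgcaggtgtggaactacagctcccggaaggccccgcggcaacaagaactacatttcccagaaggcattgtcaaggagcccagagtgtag
Mrps12 (chr7:28741792-28742071, minus strand): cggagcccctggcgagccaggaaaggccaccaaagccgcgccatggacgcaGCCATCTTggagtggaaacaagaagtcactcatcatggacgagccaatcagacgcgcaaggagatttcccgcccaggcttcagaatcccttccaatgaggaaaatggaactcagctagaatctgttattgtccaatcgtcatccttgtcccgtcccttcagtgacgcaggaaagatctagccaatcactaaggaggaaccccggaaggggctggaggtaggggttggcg
Mrpl52 (chr14:54426659-54426938, plus strand): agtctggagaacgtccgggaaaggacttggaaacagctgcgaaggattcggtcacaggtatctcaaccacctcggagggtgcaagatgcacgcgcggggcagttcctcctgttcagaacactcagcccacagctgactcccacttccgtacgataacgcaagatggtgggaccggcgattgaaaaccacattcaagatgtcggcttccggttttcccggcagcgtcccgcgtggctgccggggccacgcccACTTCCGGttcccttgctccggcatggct
Mrpl3 (chr9:105053018-105053297, plus strand): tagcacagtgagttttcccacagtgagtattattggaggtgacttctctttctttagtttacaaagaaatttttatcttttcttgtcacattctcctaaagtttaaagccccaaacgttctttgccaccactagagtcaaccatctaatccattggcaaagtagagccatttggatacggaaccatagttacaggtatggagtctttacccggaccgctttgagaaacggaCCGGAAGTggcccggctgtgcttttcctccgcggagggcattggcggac
Mrpl30 (chr1:37890227-37890506, plus strand): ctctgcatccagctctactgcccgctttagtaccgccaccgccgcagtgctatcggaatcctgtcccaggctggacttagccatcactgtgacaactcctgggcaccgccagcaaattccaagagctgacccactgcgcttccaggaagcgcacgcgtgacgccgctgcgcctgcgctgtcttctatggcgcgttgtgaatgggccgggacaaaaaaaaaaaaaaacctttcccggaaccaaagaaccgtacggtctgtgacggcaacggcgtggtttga
Mrpl20 (chr4:155802628-155802907, plus strand): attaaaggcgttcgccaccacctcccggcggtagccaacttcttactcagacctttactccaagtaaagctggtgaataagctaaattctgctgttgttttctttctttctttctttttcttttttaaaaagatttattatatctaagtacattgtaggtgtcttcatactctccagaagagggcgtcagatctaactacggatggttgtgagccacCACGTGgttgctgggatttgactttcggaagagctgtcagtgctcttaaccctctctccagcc
In these windows the YY1 letters were found in Mrps12, the GABP letters in Mrpl52 and Mrpl3, the E-box in Mrpl20, and none of the 4 in Mrpl34 or Mrpl30. Over windows of 300 bases (250 before, 50 after), the YY1 letters were in 12 of 69 members (17.4%) and in 5.28% of 9387 tested genes with a window. The GABP letters were also in 12 members (17.4%) and in 9.09% of tested genes. The NRF1 letters were in 3 members (4.35% against 2.31%) and the E-box in 5 (7.25% against 11.8%). Over all 27025 RefSeq windows the shares were 3.19% for YY1, 4.31% for GABP, 1.07% for NRF1 and 8.09% for the E-box. Of the 6 genes of the block with a window, 2 held the YY1 letters, 1 the GABP letters, 1 the E-box and 0 the NRF1 letters. A match is a description of letters only.

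Scaling and single libraries set the number of calls in HXP against control as well. Median-ratio scaling gave 0 higher and 27 lower members with a median of -0.39 (3.41% of all genes higher, 5.94% lower), and the GC correction 0 higher and 26 lower with a median of -0.34 (3.89% higher, 4.27% lower). The 4 called genes were among those called in both. Without HXP 1, 19 members were called lower, and without HXP 6, 17. Without any 1 of the 6 controls, or without HXP 2, 3 or 5, or without MI 1 or MI 6, none was called, and Mrps12 alone was without HXP 4, MI 4 or MI 5. Without MI 2 the 2 called were Mrpl4 and Mrps12. For the fits that leave out a library, the share of all genes called is not given. Their counts cannot be read as particular to the members.

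HXP hearts were compared with MI hearts to ask what differs between the groups. The HXP and MI libraries are those used above. HXP 1, 3, 4 and 6 lie in a run of library numbers that holds no MI library, so run and treatment cannot be fully told apart. No member was called by limma (0 of 78), and 0.0% of all genes were called higher and 0.0% lower. None was called by voom on the recovered reads or with the run as a term in the fit. At an unadjusted p below 0.05 there were 21 members and 1891 of 13710 genes. The member median was -0.09 and that of all genes -0.12. The member median turned to 0.07 with median-ratio scaling and 0.04 after the GC correction. No member had HXP libraries all above or all below MI, where 0.117% of genes lay above and 0.306% below.

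The smallest p belonged to Mrps12 and Mrpl34 of the block, followed by Mrpl54, which is not of the block. Mrps12 had 18.4 ± 7.39 FPKM in MI and 6.31 ± 3.37 in HXP (-1.47, SE 0.32, adjusted p 0.196). Mrpl34 had 43.4 ± 23.7 and 14.1 ± 9.98 (-1.63, SE 0.43, adjusted p 0.239), and Mrpl54, of the stalk base, 27.3 ± 7.52 and 15.5 ± 6.83 (-0.85, SE 0.23, adjusted p 0.248). The MI and HXP ranges overlapped in all 3. Among the genes lower in MI, Mrpl3 had 7.87 ± 0.628 FPKM in MI and 9.27 ± 1.41 in HXP (0.20, adjusted p 0.335), and Mrpl30 28.4 ± 2.58 and 32.2 ± 5.42 (0.16, adjusted p 0.447). Without HXP 1, Mrps12, Mrpl34, Mrps28 and Mrpl12 were called lower in HXP than in MI. The share of all genes called in that fit is not given, so these calls cannot be read as particular to the members.

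GC content was checked over all members. Their GC content ran from 39.4% to 59.3% with a median of 49.9%, close to the 49.4% of all genes tested, while their median exon length of 2394 bases was below the 3990 of all genes. Across the 78 members, Spearman's rho between GC content and fold change was 0.04 in MI against control, -0.53 in HXP against MI and -0.40 in HXP against control. Across all genes tested it was 0.15, -0.45 and -0.14. These are descriptions across genes of the same libraries, and genes are not independent replicates.

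All genes were cut into 5 equal bins of GC content. The member medians in MI against control were -0.15, -0.11, -0.06, -0.12 and -0.15 from the lowest to the highest bin, and those of all genes 0.20, 0.25, 0.29, 0.31 and 0.34. The members were below the other genes in each bin. In HXP against control the member medians were -0.13, -0.10, -0.10, -0.28 and -0.51, with all genes at 0.17, 0.18, 0.19, 0.16 and 0.05. There the distance was widest in the GC-richest bin. After a correction on GC content and then on length, 39 members were called in MI against control and 26 in HXP against control. The shares of all genes called in that setting are not given.

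**Figure D5:**
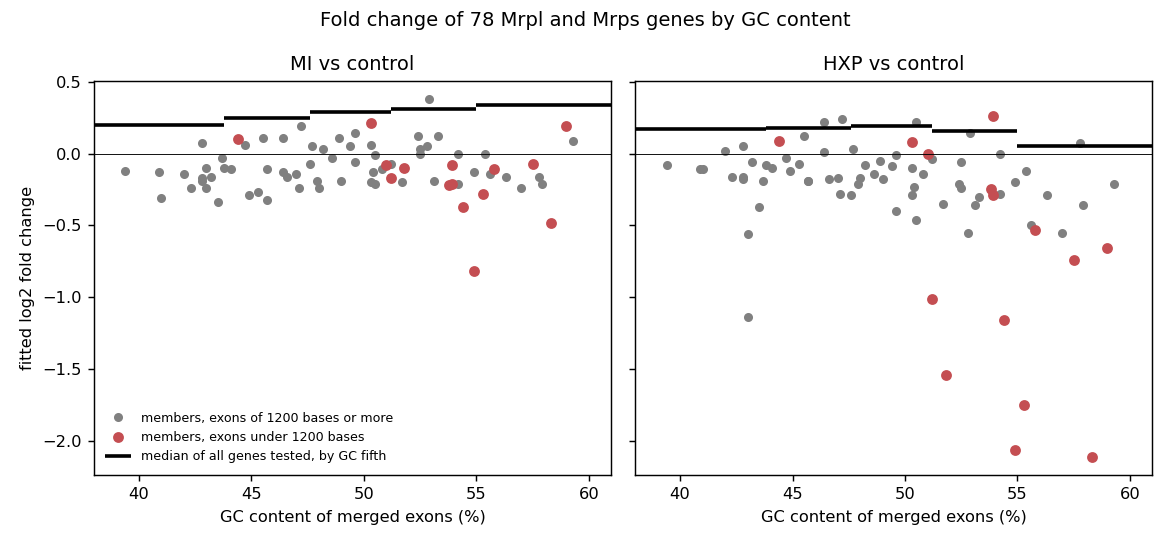
Fitted log2 fold change of each member against the GC content of its merged exons (circles; red, exons under 1200 bases), in MI against control (left) and HXP against control (right), with the median of all genes tested in each of 5 bins of GC content (black lines). On the left all members but Mrpl20 (0.38 against 0.31) lie below the lines; on the right 6 short members reach -1 or lower, and the single long one is Mrpl57.

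The rest of the mitochondrial translation machinery was read from lists of known members, beside 40.1% of all genes tested called higher in MI than in control and 3.21% lower. In MI against control, 3 of 19 translation factors were lower and 0 higher (median -0.08): Qrsl1, of the enzyme that makes glutaminyl-tRNA (-0.33, adjusted p 0.0229), the initiation factor Mtif2 (-0.23, adjusted p 0.0289) and the elongation factor Gfm1 (-0.27, adjusted p 0.0389). Of 31 assembly factors 4 were lower and 2 higher (median -0.04), among them the RNA-binding protein Fastkd2 (4.36 ± 0.349 to 3.31 ± 0.3 FPKM, -0.31, adjusted p 0.0147) and Mpv17l2 (5.10 ± 0.523 to 7.58 ± 1.54 FPKM, 0.48, adjusted p 0.0245). Of 5 measured mitoribosomal proteins without an Mrp symbol 1 was lower, Ptcd3 of the small subunit (15.4 ± 0.577 to 11.1 ± 1.79 FPKM, -0.45, adjusted p 0.0147). Of 19 mitochondrial aminoacyl-tRNA synthetase genes only Gars, whose product also serves the cytosol, was called (0.31, adjusted p 0.0296). The lists here and below were not read with median-ratio scaling alone, so effects of centring and of GC content cannot be told apart. The GC correction, which also centres each library, changed these counts, with 16.8% of all genes then called higher and 14.5% lower. After it 13 of 19 translation factors, 14 of 31 assembly factors, 11 of 19 synthetases and 4 of 5 other mitoribosomal proteins were lower and none was higher.

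The RNAs of the mitochondrial genome lay lower still in MI. Both ribosomal RNAs were called: mt-Rnr2, of the large subunit, had 8886.5 ± 1003.3 FPKM in control and 4593.5 ± 1383.5 in MI (-1.0, adjusted p 0.0158), and mt-Rnr1 4915.4 ± 813.8 and 2982.9 ± 970.1 (-0.78, adjusted p 0.0388). The libraries were depleted of ribosomal RNA, and how far depletion took these 2 RNAs was not tested. Of 13 mitochondrial mRNAs 6 were lower (median -0.46), and 7 after the GC correction. Of 82 cytosolic ribosomal protein genes 45 were higher and 1 lower, with a median of 0.45 against 0.27 over all genes. After the GC correction 8 were higher and 1 lower, a smaller share than the 16.8% of all genes called higher, with a median of 0.17. Of 17 genes of mitochondrial transcription and biogenesis 4 were higher and 4 lower, and 0 and 8 after the GC correction. Before that correction the lower ones included Tfb2m, a transcription factor of the mitochondrial genome (-0.33, adjusted p 0.0139), and the nuclear receptor Esrrg (-0.37, adjusted p 0.0184). The 4 higher were Pprc1 (0.49, adjusted p 0.0212), Yy1 (0.30, adjusted p 0.0227), Myc (0.63, adjusted p 0.0295) and Gabpb1 (0.29, adjusted p 0.0354).

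In HXP against control none of the translation factors, assembly factors, synthetases, other mitoribosomal proteins, mitochondrial RNAs or cytosolic ribosomal protein genes was called, and of the biogenesis genes Tfb2m alone was (18.4 ± 0.868 to 14.1 ± 1.52 FPKM, -0.37, adjusted p 0.05 as rounded). The medians were -0.06 for translation factors, -0.05 for assembly factors, -0.28 for mitochondrial mRNAs and 0.39 for cytosolic ribosomal protein genes. After the GC correction, with 3.89% of all genes called higher and 4.27% lower, 3 translation factors, 3 assembly factors, 3 synthetases, 2 other mitoribosomal proteins and 2 biogenesis genes were lower, and 10 of 82 cytosolic ribosomal protein genes were higher. The mitochondrial RNAs were not called. In HXP against MI no gene of these lists was called.

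Within groups the members varied together across libraries. After the mean of each group was subtracted, the median correlation of a member with the median member profile over 18 libraries was 0.61, from -0.37 (Mrpl32) to 0.92 (Mrpl12). Of the 78 members 52 exceeded 0.5, as did 7.86% of the other genes. The genes outside the set with the highest values were Atp5g3, of ATP synthase (0.93), the complex I genes Ndufb8 (0.92) and Ndufa8 (0.91), Gm12251 (0.91) and Mcat, of mitochondrial fatty acid synthesis (0.89). These values share library, depth and tissue make-up, and a member is part of the profile it is compared with.

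Members often began next to another gene. A protein-coding gene on the opposite strand started within 1000 bases of 18 members (23.1%), against 9.92% of the protein-coding genes tested. Examples are Sars2, a mitochondrial seryl-tRNA synthetase, opposite Mrps12, and Mitd1 opposite Mrpl30. Sars2 had 2.49 ± 0.372 FPKM in control and 1.88 ± 0.659 in HXP (-0.31, adjusted p 0.124), beside -1.75 for Mrps12. A gene overlap was annotated for 40 members (51.3%) and for 48.8% of protein-coding genes tested.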

How the data were processed

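Heart RNA of 18 libraries (control, MI and HXP, 6 each) was sequenced after removal of ribosomal RNA, per the labels' protocols. The authors deposited FPKM values, 1 per Ensembl gene and library, that is read counts divided by gene length and library size; no header names the unit, which was read from the numbers. Value times exon length was a whole number of reads, up to 1 factor per library, for 95.3% to 98.4% of the values checked (within 0.1 read). That factor gave 75.6 to 81.0 M reads per library. The submitters' processing notes name GRCm38 and limma. The aligner, counting tool and annotation used upstream are not stated there or in the labels.

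IDs were matched to GENCODE M21 (34097 matched, 53 not), whose transcripts gave exon length and GC content. One limma 3.58.1 model (R 4.3.3, trend on, robust prior off, two-sided) was fitted to log2(FPKM + 1) of 13710 genes (mean 0.5 FPKM or more) in 3 groups, with Benjamini-Hochberg adjustment over all of them and a call below 0.05. Fold changes are on that scale and are compressed for low genes. Standard errors pool the spread of the 3 groups. The GC correction was a lowess fit (span 0.3) per library. No library was left out.

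The members, the lists and the rule for named genes were chosen with earlier results of these data known. Named were 12 members by role, the extremes among called members (or the smallest p), members with groups that do not overlap, the highest and lowest 3 by level, and the 2 smallest p of each list. Others are examples chosen after their values were seen, as was the block of low HXP genes. Other settings were 3 scalings, 2 filters, only the compared groups, a robust prior, a pseudocount of 0.1, a replicate block, the run, GC corrections, voom, averaging MI 1 and MI 2, and leaving out libraries. The settings with GC and length, and with GC but without HXP 5 and HXP 6, were chosen after seeing the data. Of the members, 69 of 78 matched a RefSeq start region; protein sequences were not used here. Figures were drawn with matplotlib 3.10.9.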

Additional observations from a re-analysis of the deposited data

Results flagged for a closer look

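Single libraries stood apart from the other 5 of their group in 5 of the 93 groups looked at (31 named members in 3 groups each), where the gap to the nearest library exceeded 0.625 of the range of the group. Chance alone flags about 1 in 20 groups of 6 independent, normally distributed values. These members share their libraries and were named partly by their values, so the flags are a description and not a test. Mrpl53, a stalk-base protein of the large subunit, had 44.7 FPKM in control 2 against 11.7 to 15.7 in the other controls, and 30.3 in MI 4 against 4.66 to 9.82 in the other MI libraries. Mrps21, of the small subunit, had 40.3 FPKM in control 5 against 66.2 to 76.7. Mrpl1, a large-subunit protein called lower in MI, had 5.85 FPKM in control 5 against 7.07 to 7.5. Mrpl12, the stalk protein, had 70.4 FPKM in HXP 1 against 42.9 to 52.1 in the other HXP libraries.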

How the results depend on the processing

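The member median stayed negative in MI against control and in HXP against control under every setting, and the counts of calls did not hold. In MI against control (8 called, median -0.11), 41 were called with quantile normalization (median -0.45), 47 with median-ratio scaling (-0.47), 33 with scaling to non-mitochondrial reads (-0.32), 41 after the GC correction (-0.39), 37 with GC correction and replicate block (-0.39), 28 with GC correction and run (-0.40), 52 with GC correction after median-ratio scaling (-0.45), 39 with GC and length correction (-0.37) and 47 with GC correction without HXP 5 and HXP 6 (-0.39). There were 18 with the compared groups only, 5 at a mean of at least 5 FPKM, 2 with no filter, 2 with MI 1 and MI 2 averaged, 4 with the run and 0 in the run of 10 libraries. Leaving out 1 library gave 0 to 9 (median -0.15 to -0.10). In HXP against control (4 called, -0.18), the counts were 21 with quantile normalization (-0.34), 27 with median-ratio scaling (-0.39), 22 with non-mitochondrial reads, 26 with GC (-0.34), 24 with GC and replicate block (-0.34), 7 with GC and run (-0.37), 27 with GC after median-ratio scaling (-0.37), 26 with GC and length (-0.35) and 56 with GC without HXP 5 and HXP 6 (-0.47). They were 19 without HXP 5 and HXP 6, 1 with voom, 1 with MI 1 and MI 2 averaged, and 0 with no filter, the compared groups only, the run or the run of 10. Leaving out 1 library gave 0 to 19 (-0.22 to -0.13). In HXP against MI (0 called), leaving out 1 library gave 0 to 4 (-0.13 to -0.05), and the median of -0.09 turned to 0.08 with quantile normalization, 0.07 with median-ratio scaling, 0.04 with GC, 0.04 with GC and replicate block, 0.07 with GC after median-ratio scaling and 0.04 with GC and length. The cause was not tested. Shares of all genes called are given above for the main fit, median-ratio scaling and the GC correction only. Counts in the other settings have no such share beside them, so they cannot be read as particular to the members.

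With the replicate number as a block, 5 members were called in MI against control and 0 in HXP against control. The samples share only a number, since correlations between same-numbered libraries ran from -0.313 to 0.635.

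In MI against control, Mrpl10 was called lower at -0.35 with median-ratio scaling, -0.27 with GC, -0.36 with GC after median-ratio scaling, -0.22 with GC and length and -0.27 with GC without HXP 5 and HXP 6, where Mrps5 was -0.21. With GC after median-ratio scaling, Mrpl20 was -0.0017 and Mrpl40 -0.22. Over single members, 182 results lost and 142 gained a call, of 2490 values under other settings.

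The closest libraries, MI 1 and MI 2, differed by 5.88 times the sampling noise and were counted as 2. The other pairs of MI libraries differed by 27.44 to 125.33 times. Whether MI 1 and MI 2 came from the same mouse is not in the labels. Labels do not tie libraries to mice, the strand of counting is not given there, and HXP 5 and HXP 6 differ from the rest in base composition.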
